A study of Rattus norvegicus with 9 samples.

Results

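The 9 genes described here, of 41801 listed in the count matrices, were picked by symbol: the mechanically gated channels Piezo1, Piezo2 and Trpv4, the transcriptional effectors Yap1, Wwtr1 and Tead1, and the target genes Ccn1, Ccn2 and Ankrd1. Their levels were read in cells of the rat proximal tibia after circular osteotomy, with and without radial extracorporeal shock waves (rESWT), by 10x Genomics single-cell RNA sequencing. All animals were Sprague-Dawley rats aged 6 to 8 weeks, described as male in the study's methods, with a 3 mm trephine osteotomy of the tibia and, in the study's model, a skin wound on the dorsal foot. The TO rats had the osteotomy alone, and their libraries were named 2d 0h and 2d 4h for day 2 and 4d 4h and 4d 24h for day 4, by the day of the session and the hour of collection. The TOE rats had the osteotomy and rESWT at 3 bar, 300 impulses and 5 Hz, which the study's schedule gave on days 2 and 4, and their libraries were 2d 4h and 2d 24h for day 2 and 4d 4h and 4d 24h for day 4. The day 2 libraries were thus collected before the day 4 session, so the number of sessions differed between the pairs of day 2 and day 4 under that schedule. TOE was set against TO in 3 pairs, 2d 4h and, for day 4, 4d 4h and 4d 24h. The labels also name a TO library at 2d 24h, the partner of TOE 2d 24h, whose counts were not analysed here. The sources used here do not say how many rats entered a library.

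The Piezo proteins are very large channels that open when the membrane is stretched, and Trpv4 is a calcium channel that responds to cell swelling, warmth and mechanical load, well known from cartilage. YAP (Yap1) and TAZ (Wwtr1) are coactivators held in the cytoplasm by the Hippo kinases. On stiff or stretched substrates they enter the nucleus, bind TEAD factors such as Tead1, and raise genes such as Ccn1 and Ccn2, which encode secreted matricellular proteins, and Ankrd1, an ankyrin repeat protein best known from striated muscle. In bone, osteoblast-lineage cells and vessel walls are classic sites of this pathway.

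TEAD factors bind DNA at the motif GGAATG. The 250 bases before the start sites of Ccn1 and Ccn2 are shown because these genes are the most widely used readouts of YAP and TEAD activity. The sequences are from RefSeq on build GRCr8, 5′ to 3′ on the strand of the gene, with every GGAATG or its reverse complement CATTCC in capitals. The Ccn1 window lies at chr2:237225690-237225939 and the Ccn2 window at chr1:22624615-22624864, both on the minus strand and upstream of the gene.

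Ccn1: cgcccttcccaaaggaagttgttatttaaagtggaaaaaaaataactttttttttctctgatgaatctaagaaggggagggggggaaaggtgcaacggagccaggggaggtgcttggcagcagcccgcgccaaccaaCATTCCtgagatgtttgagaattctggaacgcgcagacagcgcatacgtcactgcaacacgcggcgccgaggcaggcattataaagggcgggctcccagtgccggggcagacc
Ccn2: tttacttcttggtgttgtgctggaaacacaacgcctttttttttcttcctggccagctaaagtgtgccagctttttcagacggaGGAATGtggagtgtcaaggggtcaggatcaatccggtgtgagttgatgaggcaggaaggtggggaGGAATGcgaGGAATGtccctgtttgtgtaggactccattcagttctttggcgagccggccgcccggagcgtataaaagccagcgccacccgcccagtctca

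The Ccn1 window held 1 match, whose first base lay at -113 from the start site, and the Ccn2 window held 3 matches, at -166, -101 and -92. Searched on both strands in the same way, 12.1% of 33469 RefSeq promoter windows held at least 1 match and 0.0807% held 3 or more. Of the 6 of these 9 genes found in the table, Yap1 also had 1 match, at -116, while the windows of Piezo2, Trpv4 and Wwtr1 had 0. A match is a run of letters and not a measured binding site.

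The 8 libraries held 12451 to 17187 barcodes each, and 111646 cells in all (12007 to 16409 per library) were kept after filtering and doublet removal. Total counts were 95954800 to 144146202 unique molecular identifiers (UMIs) per library, and any pair of libraries shared 40 to 110 barcodes. Each condition had 1 library, so no difference between conditions was tested. The unit of level is CPM, a gene's UMIs in every 1000000 UMIs counted in those cells, and the intervals are exact 95% intervals that cover counting error only. Levels were not corrected for gene length, so different genes were not ranked against each other. Cells were clustered without these 9 genes and the related gene lists among the variable genes. Most cells were blood cells. The mesenchymal-like class had 1311 cells (1.17%, and 0.378% to 3.53% per library) and the endothelial-like class 383. All 12 mesenchymal and all 11 endothelial markers were raised in them, with Col1a1 at 43883 against 203 CPM in the other cells and Cdh5 at 558 against 0.459 CPM. Their median depths, 31133 and 14227 UMIs per cell, were above those of most blood classes. When clustered again, 403 mesenchymal-like cells (30.7%, with 37.6% of the class's UMIs) stayed unnamed, and these gave 59.3% of the class's UMIs in TOE 2d 24h. Some unnamed subclusters were led by blood genes, such as Jchain and Cd79a, Defa5 and Mcpt8, or haemoglobin genes. The haemoglobin-led subcluster had 16 of its 22 cells in TOE 4d 4h.

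In the sum over libraries, apart from Piezo1 and the scarce Ankrd1, the genes were carried mainly by stromal and vascular cells. Piezo1 was shared with the myeloid cells. The mesenchymal-like and endothelial-like classes, 1.52% of the cells together, held 89.0% of the UMIs of Ccn1, 86.9% of those of Yap1 and 80.9% of those of Wwtr1. They held 79.5% of the UMIs of Piezo2, 79.4% of Ccn2, 79.2% of Tead1, 75.3% of Trpv4 and 41.1% of Ankrd1. The shares differed between libraries. In TO 4d 4h, mesenchymal-like cells held 644 and endothelial-like cells 215 of 975 Piezo2 UMIs. In TOE 4d 24h they held 8 and 22 of 108 Piezo2 UMIs, and 24 and 1 of 52 Trpv4 UMIs. In TOE 2d 4h they held 190 and 55 of 495 Ccn2 UMIs. Of the Piezo1 UMIs, 48.0% lay in the monocyte-like class and 9.34% in these classes. Pooled over libraries, each of the genes other than Piezo1 was at or below 7.36 CPM in every named blood class, and in single libraries at or below 19.6 CPM.

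**Figure D1:**
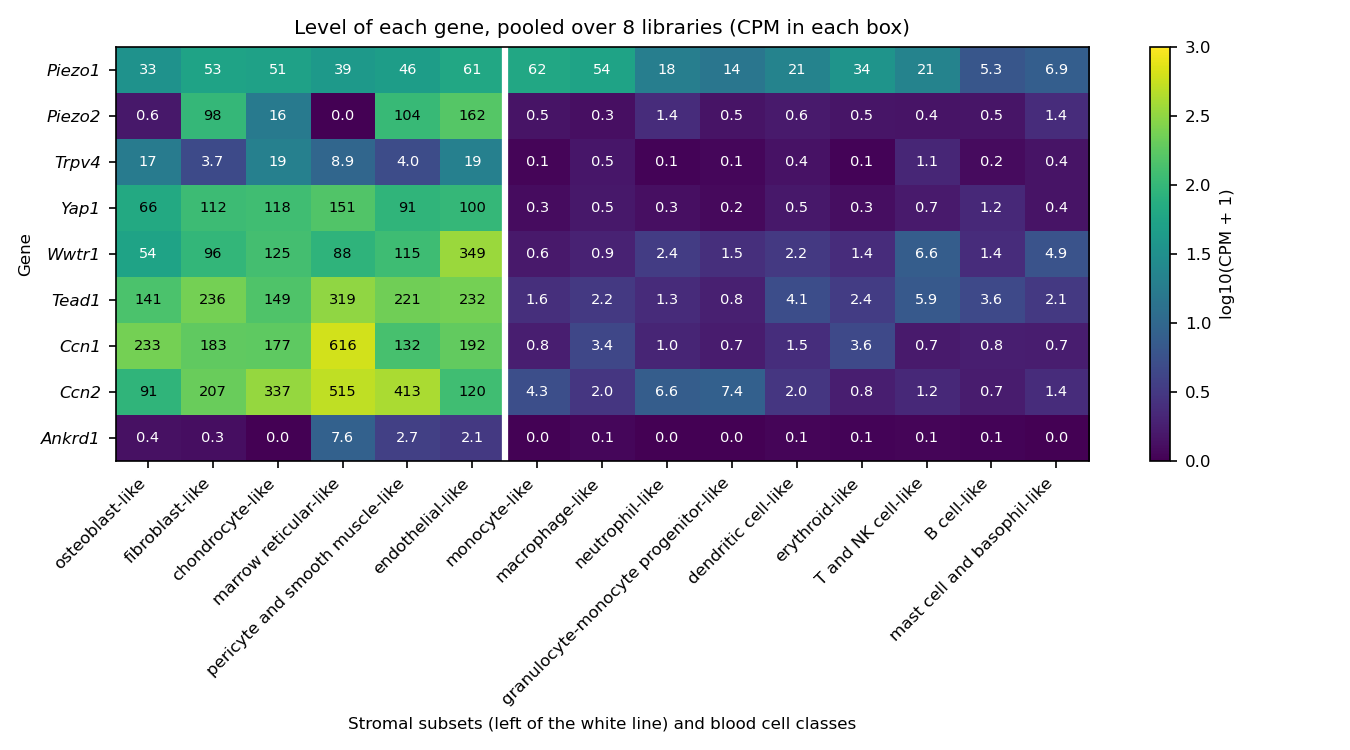
Levels of the 9 genes (rows) in 6 stromal and vascular subsets and 9 blood cell classes (columns), pooled over 8 libraries, with CPM printed in each box and colour on a log10(CPM + 1) scale. Piezo1 spans both sides of the white line, whereas the other genes lie almost wholly to its left, and Piezo2 is at 162 CPM in endothelial-like cells but 0.572 CPM in osteoblast-like cells.

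Piezo1 had its highest pooled levels in monocyte-like cells, at 61.6 CPM (interval 60.5 to 62.8), the endothelial-like class, at 59.9 CPM (54.2 to 65.9), and macrophage-like cells, at 53.8 CPM (51.4 to 56.2). These 3 were not separated over libraries, with medians of 59.3, 57.9 and 58.1 CPM and ranges of 27.5 to 89.9, 31.5 to 80.0 and 38.2 to 80.9 CPM. Erythroid-like cells had 34.3 CPM, T and NK cell-like cells 21.0 CPM, dendritic cell-like cells 20.9 CPM, neutrophil-like cells 18.0 CPM, and B cell-like cells only 5.34 CPM. Within the stroma, pooled Piezo1 levels ran from 32.8 CPM in osteoblast-like to 53.3 CPM in fibroblast-like cells. The spread between libraries was wider. In libraries with at least 10 cells of the subset, Piezo1 ran from 23.4 to 41.9 CPM in osteoblast-like cells (8 libraries). In pericyte and smooth muscle-like cells it ran from 30.4 to 89.8 CPM (4 libraries). Depth altered how often it was seen in single cells. Unthinned, 60.0% of mesenchymal-like and 48.0% of monocyte-like cells had a Piezo1 UMI. Cells with too few UMIs were then left out, among them 711 of 11985 monocyte-like and 51 of 383 endothelial-like cells. The rest were thinned to 2000 UMIs. The shares were then 7.30% in mesenchymal-like, 12.1% in monocyte-like, 10.8% in endothelial-like and 0.875% in B cell-like cells.

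Piezo2 had a narrow pattern. It was at 162 CPM in the endothelial-like subset, 104 CPM in pericyte and smooth muscle-like cells and 97.7 CPM in fibroblast-like cells, whose larger cluster was led by Tnmd, Prg4 and Sfrp2. The fibroblast-like value was carried by TO 4d 4h, at 126 CPM, and was 42.7 CPM without that library. The other libraries with at least 10 such cells, TO 2d 0h and TOE 4d 4h, had 21.8 and 26.9 CPM. Chondrocyte-like cells had 16.5 CPM, and 8.89 CPM without TOE 4d 4h. Osteoblast-like cells had 9 UMIs in 477 cells (0.572 CPM), and the 40 marrow reticular-like cells, marked by Cxcl12 and Lepr, had 0 among 786323 UMIs, where a count of 0 allows up to 3.82 CPM by a floor of 3 UMIs. Within the endothelial-like cells, the cluster led by Gpr182 and Stab2, genes of sinusoidal endothelium, had 213 CPM of Piezo2, and the cluster led by Gja5 and Gja4, genes of arterial endothelium, had 60.1 CPM.

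Trpv4 had the opposite order in several of these populations, though not in the endothelial-like class, where it was at 18.2 CPM. It was at 16.6 CPM in osteoblast-like cells, 19.1 CPM in chondrocyte-like cells and 8.90 CPM in marrow reticular-like cells, against 3.74 CPM in fibroblast-like and 4.01 CPM in pericyte and smooth muscle-like cells. Among endothelial-like cells, the cluster led by Gja5 had 49.4 CPM and the cluster led by Stab2 had 4.58 CPM. Chondrocyte-like levels were uneven, from 0 to 60.7 CPM over the 4 libraries with at least 10 such cells, and 10 of the 28 UMIs in TO 2d 0h came from 1 cell. The pooled value was 10.2 CPM without that library.

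The effectors were found in all 6 subsets. Yap1 ranged from 65.9 CPM in osteoblast-like to 151 CPM in marrow reticular-like cells. Tead1 ranged from 141 CPM in osteoblast-like to 319 CPM in marrow reticular-like cells. Wwtr1 stood apart in the endothelial-like subset, at 349 CPM against 53.8 to 125 CPM in the 5 mesenchymal subsets. After thinning to 2000 UMIs, with cells of lower depth left out, 46.1% of 332 endothelial-like and 13.5% of 1301 mesenchymal-like cells had a Wwtr1 UMI. The share in B cell-like cells was 0.347%.

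The pooled levels of the secreted targets were highest in marrow reticular-like cells, where Ccn1 was at 616 CPM and Ccn2 at 515 CPM. These values rest on 40 cells, 1 to 8 a library, and without TO 2d 0h they were 406 and 356 CPM. Ccn1 lay between 132 and 233 CPM in the other subsets. Ccn2 was at 413 CPM in pericyte and smooth muscle-like, 337 CPM in chondrocyte-like and 207 CPM in fibroblast-like cells, and lowest in osteoblast-like cells, at 91.1 CPM. By library, Ccn2 ran from 77.8 to 599 CPM in pericyte and smooth muscle-like and from 111 to 465 CPM in chondrocyte-like cells, so the order of these and the marrow reticular-like cells was not resolved. The pooled pericyte and smooth muscle-like level was 261 CPM without TOE 2d 24h. Ankrd1 was barely detected, with 248 UMIs in 96 of the 111646 cells, and 43.5% of them in 3 cells.

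The genes whose levels over 15 populations (6 subsets and 9 blood classes) were most like each gene were found by Pearson correlation of log2(CPM + 1) among 13309 genes. Those compared had at least 100 UMIs in the mesenchymal-like and endothelial-like cells. For Yap1 the most alike genes were Afap1 (r = 0.994), Parva and Armcx4. For Tead1 they were Yap1 itself (r = 0.992), Nectin3 and Tjp1, and for Wwtr1 Tjp1 (r = 0.982), Yes1 and Plat. Ccn1 was most like Tfpi2 (r = 0.990), Ccn2 like Pard3 (r = 0.985), Piezo2 like Rassf9 (r = 0.985) and Trpv4 like Mdfi (r = 0.965). Piezo1 had the weakest match, Tnfrsf1a, the receptor for TNF, at r = 0.872, and its r with Piezo2 was 0.453. Yap1 also had an r of 0.982 with Ccn1, 0.962 with Wwtr1 and 0.958 with Ccn2. Most of these 9 genes were high in the 6 subsets and low in the 9 blood classes. Any gene split in that way has a high r with them, and the genes compared were filtered on their UMIs in the subsets. A typical r of such genes is not given here. The populations share libraries, and the values are descriptions that do not show joint regulation.

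In mesenchymal-like cells, Piezo2 differed most of the 9 genes between TOE and TO at 4 h, and it did so in opposite directions in the pairs at 4 h. A gene was counted as past 2-fold when its log2 ratio, with 0.5 UMI added, reached 1 either way and the pair held at least 20 UMIs.

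**Figure D2:**
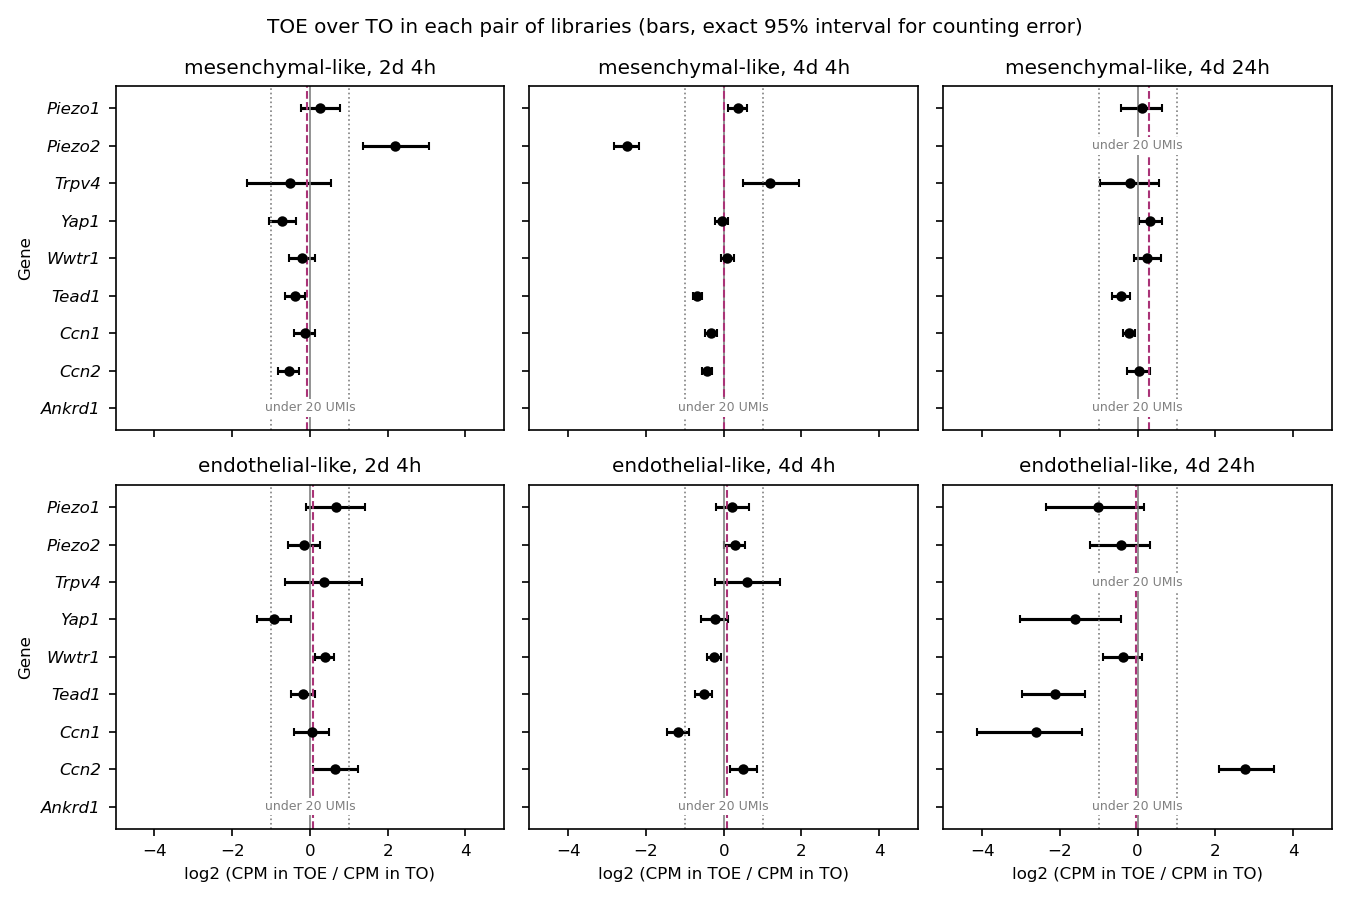
Log2 ratio of CPM in TOE over TO (x axis) for each gene (y axis), in mesenchymal-like (top) and endothelial-like cells (bottom) in 3 pairs of libraries, with points for the ratio, bars for the 95% interval of counting error, dotted lines at 2-fold and a dashed line at the median of all genes. Piezo2 lies to the right at 2d 4h and to the left at 4d 4h in mesenchymal-like cells, while most other points there lie between the dotted lines.

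At 2d 4h, Piezo2 was at 10.7 CPM in TO (16 UMIs in 67 cells) and 48.5 CPM in TOE (61 UMIs in 62 cells), a ratio of 4.54 (interval 2.59 to 8.44). Only 9 of the 67 TO cells and 10 of the 62 TOE cells had a Piezo2 UMI, and 1 TOE cell held 21. Piezo2 was the only gene past 2-fold among the 8 with enough UMIs, where 9.33% of all genes were past 2-fold. At 4d 4h, Piezo2 was at 108 CPM in TO (644 UMIs in 179 cells) and 19.2 CPM in TOE (96 UMIs in 184 cells), a ratio of 0.178 (0.142 to 0.221). Trpv4 went the other way in that pair, from 4.52 CPM (27 UMIs) to 10.4 CPM (52 UMIs), a ratio of 2.30 (1.42 to 3.80). These 2 of 8 genes compare with 10.6% of all genes at 4d 4h. At 4d 24h, 0 of the 7 genes with enough UMIs were past 2-fold, against 18.4% of all genes, whose median log2 ratio was 0.287. Piezo2 had 1 UMI in TO and 8 UMIs in TOE there, too few to count.

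The libraries of a pair also differed in which mesenchymal cells they held. Fibroblast-like cells were 125 of 179 mesenchymal-like cells in TO 4d 4h and gave 73.8% of that class's UMIs, but 31 of 184 cells and 19.3% in TOE 4d 4h. From TO to TOE in that pair, osteoblast-like cells went from 19 to 51, chondrocyte-like cells from 3 to 38 (1.16% to 18.5% of UMIs), and cells of unnamed subclusters from 5 to 45. At 2d 4h, 3 of 67 TO cells and 8 of 62 TOE cells were fibroblast-like, and 8 and 5 were pericyte and smooth muscle-like. At 4d 24h, chondrocyte-like cells were 1 of 104 in TO and 26 of 86 in TOE, and osteoblast-like cells 76 and 49. The summed level of the haemoglobin genes in mesenchymal-like cells also differed, at 2894 and 491 CPM (TO, then TOE) at 2d 4h, 774 and 2141 CPM at 4d 4h, and 783 and 12.7 CPM at 4d 24h. The part of these shifts in the ratios of the class was not tested.

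**Figure D3:**
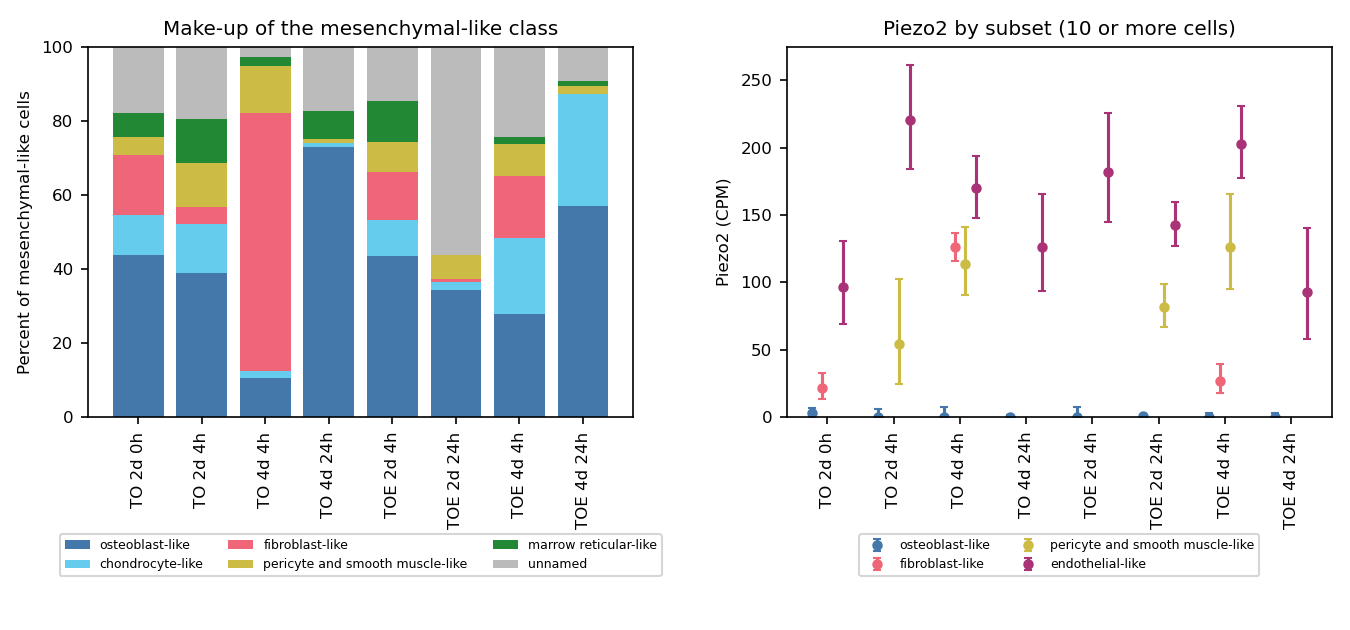
Left, the percent of mesenchymal-like cells in each subset (stacked bars) in 8 libraries. Right, Piezo2 in CPM (points, with 95% Poisson intervals) in 4 subsets with at least 10 cells in that library. Fibroblast-like cells fill most of the bar of TO 4d 4h, and Piezo2 in osteoblast-like cells stays at or below 3.14 CPM in all libraries.

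Within fibroblast-like cells at 4d 4h, Piezo2 was still lower in TOE, at 26.9 CPM (26 UMIs) against 126 CPM (555 UMIs) in TO, a ratio of 0.214 (0.138 to 0.317). The fibroblast-like cells of TO 2d 0h had 21.8 CPM, near the TOE value. In pericyte and smooth muscle-like cells of the same pair, Piezo2 was at 114 CPM in TO and 126 CPM in TOE, and the interval of the ratio, 0.772 to 1.59, held 1. At 2d 4h, 39 of the 61 Piezo2 UMIs in TOE came from 5 pericyte and smooth muscle-like cells and 22 from 8 fibroblast-like cells. In osteoblast-like cells Piezo2 had 0 UMIs in every library of the 3 pairs. In that subset as a whole, 0 of the genes with at least 20 UMIs were past 2-fold in any pair. The share of all genes past 2-fold in that subset was not computed, so this count has no background. It was not computed in fibroblast-like or pericyte and smooth muscle-like cells either. Trpv4 in osteoblast-like cells was at 14.2 CPM in TO 4d 4h and 21.0 CPM in TOE 4d 4h, and the interval of the ratio was 0.629 to 4.00.

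The remaining genes moved by less in mesenchymal-like cells. Piezo1 was at 46.7 and 56.4 CPM (TO, then TOE) at 2d 4h, 48.8 and 62.3 CPM at 4d 4h, and 24.5 and 26.3 CPM at 4d 24h. Only the interval at 4d 4h, 1.09 to 1.51, left out 1. Yap1 was lower in TOE at 2d 4h, at 83.5 against 136 CPM (ratio 0.613, 0.480 to 0.779), nearly level at 4d 4h, at 109 against 113 CPM, and higher at 4d 24h, at 82.2 against 65.5 CPM (1.26, 1.02 to 1.54). In osteoblast-like cells at 2d 4h, Yap1 had the other sign, 85.9 CPM in TOE against 59.3 CPM in TO, with an interval of 0.918 to 2.30. At 4d 24h its ratio in osteoblast-like cells was 1.02 (0.768 to 1.34). The median log2 ratio of all genes in mesenchymal-like cells of that pair was 0.287. Wwtr1 gave ratios of 0.872, 1.07 and 1.19 in the order of the pairs, and each interval held 1.

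Tead1 was lower in TOE in each pair, at 158 against 207 CPM, 157 against 252 CPM and 110 against 149 CPM. The ratios were 0.764, 0.626 and 0.739, and no interval held 1. In osteoblast-like cells the ratios of Tead1 were 0.691 (0.475 to 0.993), 0.865 (0.607 to 1.25) and 0.575 (0.451 to 0.727), and in fibroblast-like cells at 4d 4h 0.749 (0.638 to 0.875). At 4d 24h, TO had 78 osteoblast-like cells, 76 of them in the mesenchymal-like class. Of these 78, 68 lay in the cluster led by Bglap, the gene of osteocalcin. In TOE, 37 of 49 lay in a cluster led by tRNA genes with a median of 7787 UMIs per cell. In the Bglap-led cluster alone the ratios were 0.791 (0.520 to 1.19), 1.35 (0.710 to 2.73) and 0.522 (0.370 to 0.721), so the sign at 4d 4h turned there, on 13 UMIs in TO and 43 in TOE. Wwtr1 was past 2-fold in that cluster at 4d 4h, at 27.9 CPM in TO (8 UMIs) and 75.2 CPM in TOE (53 UMIs), a ratio of 2.69 (1.27 to 6.56), though not in osteoblast-like cells as a whole (1.06, 0.672 to 1.73). The cluster had 15 cells in TO and 32 in TOE in this pair. The share of all genes past 2-fold in it was not computed, so the Wwtr1 value has no background. All the Tead1 shifts were smaller than 2-fold and rest on 1 library a side.

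The targets were lower in TOE in each pair when summed, at 411 and 323 CPM (TO, then TOE) at 2d 4h, 392 and 299 CPM at 4d 4h, and 370 and 329 CPM at 4d 24h. Ccn1 was at 171 against 188 CPM, 131 against 165 CPM and 247 against 288 CPM (TOE against TO). Ccn2 was lower in TOE at 2d 4h (151 against 221 CPM, ratio 0.684) and at 4d 4h (168 against 226 CPM, ratio 0.741), and nearly equal at 4d 24h (81.7 against 80.4 CPM, ratio 1.02). These directions depended on which cells were counted, since the log2 ratio of Ccn2 at 2d 4h was 0.31 without the unnamed subclusters, and in osteoblast-like cells alone that of Ccn1 was 0.32 at 2d 4h and 0.14 at 4d 24h. Within fibroblast-like cells at 4d 4h, both were near equal in TO and TOE, with ratios of 1.11 for Ccn1 and 0.946 for Ccn2. In pericyte and smooth muscle-like cells of that pair Ccn1 was higher in TOE, at 48.8 CPM in TO and 107 CPM in TOE (36 and 45 UMIs). Ankrd1 had 1 to 7 UMIs in each of the 6 libraries, and its CPM was lower in TOE in each pair, with intervals of the ratio that all held 1.

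**Figure D4:**
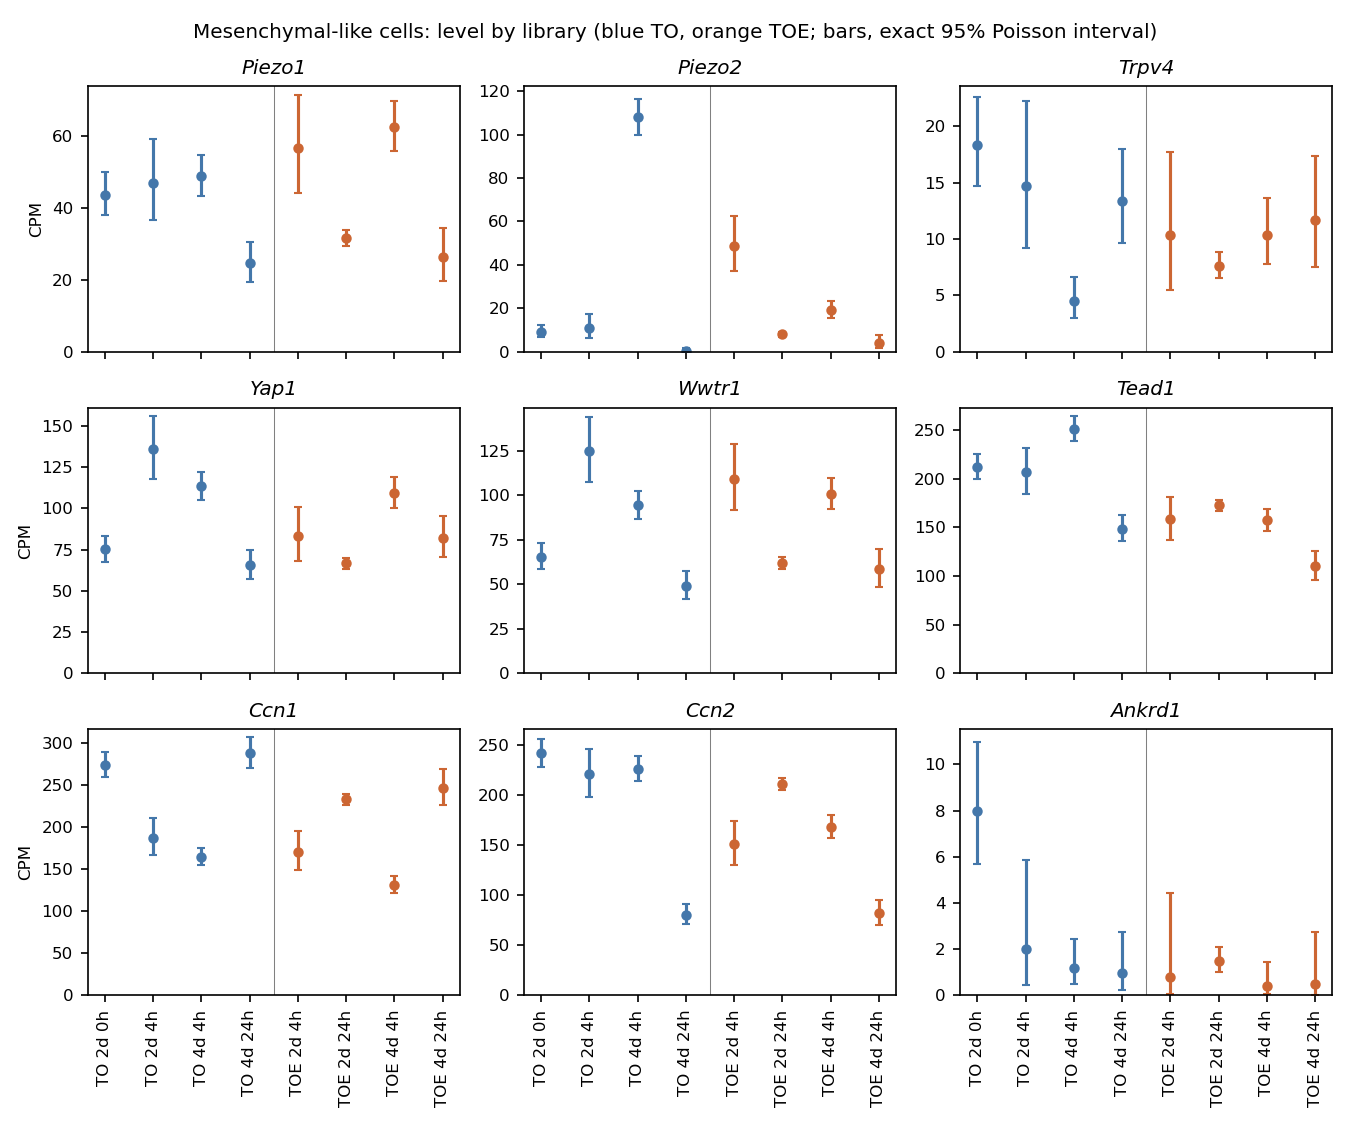
Level of each gene (CPM, y axis) in mesenchymal-like cells of 8 libraries (x axis, blue TO and orange TOE), with 95% Poisson intervals as bars. Piezo2 is highest in TO 4d 4h at 108 CPM, and Ccn1 lies at 131 to 188 CPM in the 4 libraries taken at 4 h and 233 to 288 CPM in the others.

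Endothelial-like cells were fewer, with 17 to 70 cells per library in the pairs, and Piezo2 stayed within 2-fold between TO and TOE in them. It was at 209 and 189 CPM (TO, then TOE) at 2d 4h, 170 and 206 CPM at 4d 4h, and 116 and 86.5 CPM at 4d 24h. In the Stab2-led cluster, where it was highest, it was at 328 and 195 CPM at 2d 4h (ratio 0.595, 0.436 to 0.811), and the intervals at 4d 4h (0.933 to 1.42) and 4d 24h (0.548 to 1.71) held 1. At 2d 4h, 0 of 8 genes were past 2-fold, against 12.3% of all genes. Yap1 was at 258 CPM in TO and 137 CPM in TOE (ratio 0.531, 0.390 to 0.715), and in the Stab2-led cluster at 369 and 155 CPM. In TO, 1 of the 35 cells held 53 of the 160 Yap1 UMIs. Wwtr1 was at 467 and 610 CPM, but at 599 and 612 CPM in the Stab2-led cluster (ratio 1.02, 0.837 to 1.25). The Gja5-led cluster had 13 cells in TO and 3 in TOE in this pair.

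At 4d 4h, Ccn1 was the only gene past 2-fold among 8, against 8.50% of all genes, with 272 CPM in TO and 121 CPM in TOE (ratio 0.445, 0.366 to 0.540). In TO, 1 cell held 94 of the 345 Ccn1 UMIs, and without the top cell of each library the log2 ratio was -0.91. Ccn1 was lower in TOE in both endothelial clusters with at least 10 cells a side, at 119 against 196 CPM in the Stab2-led and 139 against 307 CPM in the Gja5-led cluster. Another endothelial cluster, with a median of 1242 UMIs per cell, had 19 cells in TO and 2 in TOE, too few to compare. The Gja5-led cluster also had less Tead1 (167 against 431 CPM) and more Ccn2 (207 against 67.7 CPM) in TOE, whereas the Stab2-led cluster had more Tead1 (301 against 199 CPM) and less Ccn2 (104 against 132 CPM). For single endothelial clusters, in this and the other pairs, the share of all genes past 2-fold was not computed, so their values have no background. Over the whole class, Tead1 was at 325 CPM in TO and 227 CPM in TOE, and Ccn2 at 97.8 and 139 CPM.

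At 4d 24h, where TO had 38 and TOE 17 cells, 4 of 7 genes were past 2-fold, against 21.9% of all genes. Ccn2 was higher in TOE, at 358 against 52.3 CPM (ratio 6.84, 4.29 to 11.3), but 1 cell held 56 of its 91 UMIs, and without the top cell of each library the log2 ratio was 1.99. Ccn1 was lower, at 23.6 CPM (6 UMIs) against 146 CPM (64 UMIs), as were Tead1, at 62.9 against 273 CPM, and Yap1, at 27.5 against 84.2 CPM. The Yap1 value in TOE rests on 7 UMIs, and its sign turned when each cell was weighted alike. Immediate-early genes as a list were at 0.315% of UMIs in TOE and 1.06% in TO in these cells, and neutrophil markers at 1.17% and 0.623%. Haemoglobin genes were at 0.0208% in TOE and 0.801% in TO, and mitochondrial genes at 1.79% and 3.09%. The part of these shifts in the ratios was not tested.

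**Figure D5:**
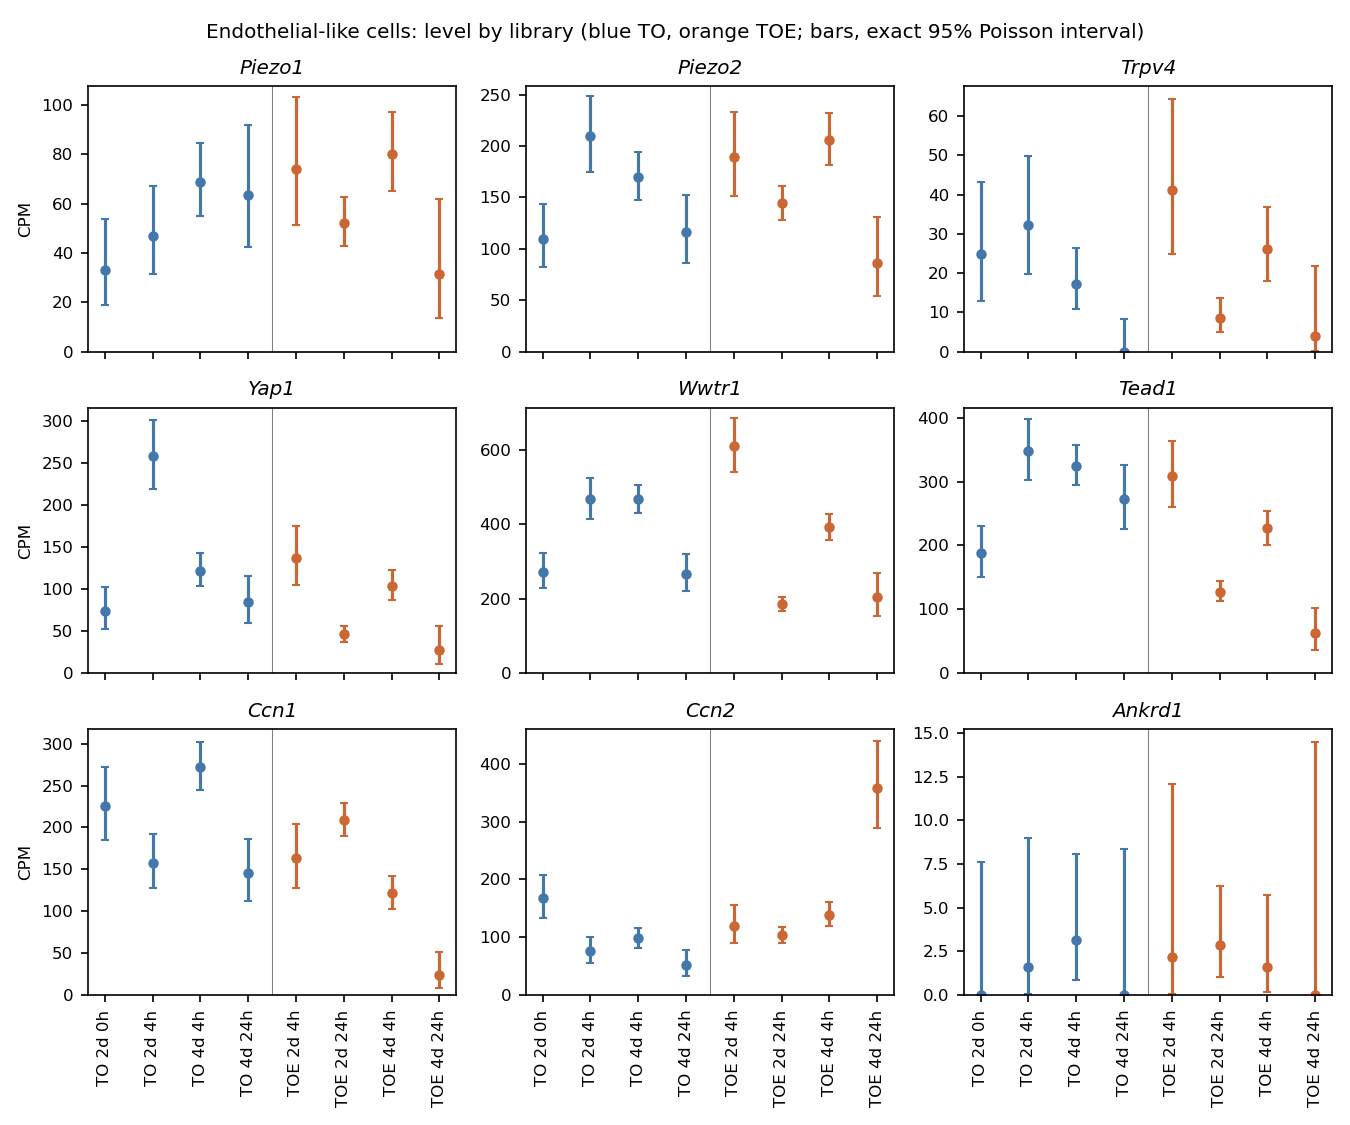
Level of each gene (CPM, y axis) in endothelial-like cells of 8 libraries (x axis, blue TO and orange TOE), with 95% Poisson intervals as bars. Ccn2 in TOE 4d 24h, at 358 CPM, lies above the other libraries, and Wwtr1 reaches 392 to 610 CPM in the 4 libraries taken at 4 h.

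Piezo1 in monocyte-like cells, which held the largest share of its UMIs, was lower in TOE in each pair and never past 2-fold. The levels were 89.9 and 72.7 CPM (TO, then TOE) at 2d 4h, 77.6 and 72.7 CPM at 4d 4h, and 45.3 and 27.5 CPM at 4d 24h. The ratios were 0.809, 0.936 and 0.607, in a class where 8.86%, 6.24% and 21.4% of all genes were past 2-fold in the 3 pairs. Of the 9 genes, 0 of the 5 with enough UMIs were past 2-fold in this class at 2d 4h. At 4d 4h 1 was higher and 1 lower of 6, and at 4d 24h 1 was higher and 0 lower of 4. Summed over all kept cells, Yap1 (3.94 to 1.89 CPM) and Ccn1 (5.48 to 2.39 CPM) were past 2-fold and lower in TOE at 2d 4h, where 11.9% of all genes were past it. Piezo2 (8.69 to 3.46 CPM) and Ankrd1 (64 to 9 UMIs) were at 4d 4h, against 6.22%, and 0 genes were at 4d 24h, against 25.0%. In each of these sums fewer cells of a type and less RNA per cell cannot be told apart, but the classes show where the UMIs lay. For Ccn1 at 2d 4h, mesenchymal-like cells held 281 UMIs in TO and 215 in TOE, endothelial-like cells 98 and 75, and the other classes 228 and 33. Of the 228, 179 lay in an erythroid-like cluster of low depth, of whose 2073 cells 1990 were from TO 2d 4h. Those 1990 cells also held Col1a1 at 4497 CPM. Without that cluster Ccn1 was at 4.01 CPM in TO and 2.39 CPM in TOE and no longer past 2-fold, while Yap1 was still past it. Over the processing alternatives, Yap1 stayed past 2-fold in 8 of 10 (log2 between -1.14 and -0.57). In TO, 1 endothelial-like cell held 53 of its 436 UMIs. The fall of Yap1 lay in mesenchymal-like (204 to 105 UMIs) and endothelial-like cells (160 to 63 UMIs), and that of Piezo2 at 4d 4h in mesenchymal-like cells (644 to 96 UMIs). Of the 64 Ankrd1 UMIs in TO 4d 4h, 46 lay in an unnamed cluster with a low median UMI count, with 104 cells in TO and 14 in TOE, and without it 18 and 9 UMIs remained. Mesenchymal-like cells were 0.449% of TO and 0.378% of TOE cells at 2d 4h, and 1.44% and 1.37% at 4d 4h.

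Several of the genes separated the libraries by the hour of collection, a grouping of both arms together that was looked at after the values were seen and was not tested. In mesenchymal-like cells the 4 libraries at 4 h lay above the 4 libraries at 0 h or 24 h, without overlap, for Piezo1 (46.7 to 62.3 against 24.5 to 43.6 CPM), Yap1 (83.5 to 136 against 65.5 to 82.2 CPM), Wwtr1 (94.3 to 125 against 49.1 to 65.5 CPM) and Piezo2 (10.7 to 108 against 0.311 to 9.26 CPM). Ccn1 was lower at 4 h, at 131 to 188 against 233 to 288 CPM. These 5 of 9 genes compare with 16.7% of all genes whose libraries did not overlap in this way. For Piezo1, Yap1 and Piezo2 the counting intervals of the nearest libraries did overlap, and Piezo2 had 1 UMI in TO 4d 24h. In endothelial-like cells, Yap1 (104 to 258 against 27.5 to 84.2 CPM), Wwtr1 (392 to 610 against 185 to 273 CPM) and Piezo2 (170 to 209 against 86.5 to 144 CPM) were higher at 4 h. These 3 of 8 genes with enough UMIs compare with 18.9% of all genes. For Yap1 and Piezo2 the counting intervals of the nearest libraries overlapped here too.

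Piezo1 was higher at 4 h in monocyte-like cells too, at 72.7 to 89.9 against 27.5 to 45.9 CPM, and in macrophage-like cells, at 59.3 to 80.9 against 38.2 to 56.9 CPM. Piezo1 was 1 of 6 genes with enough UMIs in monocyte-like and 1 of 4 in macrophage-like cells, and the only 1 that did not overlap. Libraries did not overlap for 21.4% and 18.2% of all genes in those classes, so a count of 1 did not set these genes apart. In osteoblast-like cells Piezo1, Yap1 and Wwtr1 overlapped between the hours. Ccn1, 1 of 7 genes with enough UMIs, remained apart, at 78.7 to 174 CPM at 4 h and 233 to 325 CPM otherwise. Of all genes in that subset, 8.17% did not overlap. The mitochondrial share of UMIs moved with the hour as well. It was 1.61% to 2.16% at 4 h and 2.60% to 3.98% otherwise in mesenchymal-like cells, and 0.969% to 1.64% and 1.79% to 3.09% in endothelial-like cells. Immediate-early genes were 0.529% to 0.755% and 0.848% to 1.56% of mesenchymal-like UMIs. The orders of the 9 genes given here were also present when mitochondrial and haemoglobin UMIs were left out of the totals. The part of tissue handling in them was not tested.

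The other genes of the pathway, from fixed lists, were counted in the same way in mesenchymal-like cells. Over all genes in these cells, 391 were higher and 532 lower in TOE of 9888 at 2d 4h (9.33% in all), 649 and 741 of 13143 genes at 4d 4h (10.6%), and 1599 and 389 of 10819 genes at 4d 24h (18.4%), so that far more genes were higher than lower at 4d 24h. Of other mechanically gated channels, 0 were higher and 1 lower in TOE among 11 at 2d 4h, 0 and 1 among 12 at 4d 4h, and 1 and 0 among 9 at 4d 24h, where Pkd2, a polycystin channel, went from 13.7 to 34.5 CPM. Trpm7, a channel fused to a kinase, was at 176 and 204 CPM at 2d 4h. Of Hippo kinases and regulators, 0 and 1 of 19 were higher and lower at 2d 4h (Amot, an angiomotin that binds YAP, 26.0 to 11.1 CPM), 0 and 1 of 19 genes at 4d 4h (Vgll3, a TEAD cofactor, 32.5 to 13.4 CPM), and 2 and 0 of 18 at 4d 24h. At 4d 24h these 2 were Amot and Ptpn14, a phosphatase that binds YAP (27.6 to 61.3 CPM). Of the other TEAD factors, 1 of 2 was lower at 2d 4h, 1 of 3 at 4d 4h (Tead4, 8.21 to 2.40 CPM) and 0 of 2 at 4d 24h.

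Other YAP and TAZ target genes, against the same shares of all genes, gave 4 higher and 1 lower of 20 at 2d 4h, 1 and 1 of 22 genes at 4d 4h, and 6 and 1 of 18 at 4d 24h. Amotl2, Lats2 and Ptpn14 are in this list and in that of Hippo kinases and regulators, so Ptpn14 at 4d 24h is counted in both. Igfbp3, an IGF-binding protein, was at 5.34 CPM in TO and 63.6 CPM in TOE at 2d 4h. Nt5e, the ectonucleotidase CD73, was higher in TOE at both 4 h pairs, at 54.9 against 15.4 CPM and 35.4 against 16.6 CPM. Thbs1, thrombospondin 1, was lower in TOE in both, at 308 against 481 CPM and, past 2-fold, at 285 against 635 CPM. The median log2 ratios of the list were 0.06, -0.23 and 0.45, beside -0.06, 0.00 and 0.29 for all genes.

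Of adhesion and actin genes, set against the same shares and the change of subsets at 4d 24h, 1 was higher and 0 lower of 19 at 2d 4h, 0 and 2 of 19 genes at 4d 4h, and 5 and 0 of 18 at 4d 24h. Acta2, smooth muscle actin, was past 2-fold in opposite directions in the pairs of day 4. At 4d 4h it was at 112 CPM in TO and 50.1 CPM in TOE. At 4d 24h it had 5 UMIs in TO (1.55 CPM) and 225 in TOE (109 CPM), and Tagln went from 51.2 to 369 CPM. The other CCN genes gave 2 higher and 1 lower of 3 at 2d 4h, 0 and 0 of 3 genes at 4d 4h, and 1 and 0 of 2 at 4d 24h. Ccn4 was at 142 CPM in TO and 308 CPM in TOE at 2d 4h, and Ccn5 was at 39.4 and 19.1 CPM there but at 3.42 and 31.1 CPM at 4d 24h. Immediate-early genes had 1 higher and 0 lower of 18 at 2d 4h, 0 and 3 of 18 genes at 4d 4h (Egr2 and Atf3 among them), and 0 and 8 of 18 at 4d 24h, led by Nr4a1 (84.8 to 18.5 CPM) and Egr3 (46.3 to 10.7 CPM).

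In endothelial-like cells, 527 genes were higher and 398 lower in TOE of all 7497 at 2d 4h (12.3%), 603 and 253 of 10073 genes at 4d 4h (8.50%), and 463 and 772 of 5632 genes at 4d 24h (21.9%). Other YAP and TAZ target genes gave 0 higher and 1 lower of 15 in the 2d 4h pair, 7 and 2 of 19 at 4d 4h, and 2 and 3 of 12 at 4d 24h. Adhesion and actin genes gave 0 and 1 of 15, 4 and 0 of 18, and 0 and 2 of 13 genes in the same order. Immediate-early genes gave 0 and 1 of 16, 0 and 0 of 17, and 0 and 11 of 13. Hippo kinases and regulators gave 1 and 0 of 16, 1 and 0 of 17, and 0 and 0 of 14, and other mechanically gated channels 1 and 1 of 6, 1 and 0 of 9, and 0 and 1 of 3. Of the other TEAD factors, 0 of 1, 0 of 2 and 0 of 1 were past 2-fold, and no other CCN gene had enough UMIs.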

How the data were processed

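The authors deposited 10x matrices of raw UMI counts, as whole numbers for each gene in each barcode, made with Cell Ranger 9.0.0 per the submitters' processing notes. These notes also list Seurat, R 4.0.3 and the builds mRatBN7.2 (rat) and GRCh38 (human), with no role for either, and the gene names in the matrices were those of rat. The counts of 8 libraries were used. Barcodes needed 200 or more detected genes and a mitochondrial share of no more than 20%, and doublets scored above 0.25 by Scrublet (2.43% to 4.15%) were removed. The 2000 most variable genes, without the 9 genes and the listed pathway genes, entered 30 principal components and a graph of 15 neighbours, clustered by the Leiden method at resolution 1 (scanpy 1.11.5, igraph 0.11.9, python 3.11.15). Clusters were named from markers, and mesenchymal-like and endothelial-like cells were clustered again into subsets. Clusters with fewer than 3 raised markers, with a low UMI count and no own marker among the leading 10 genes, or led by markers of another class stayed unnamed, the last by a rule added after the data were seen.

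UMIs were summed per library and class. With 1 library per condition no test was made. The counting steps were tested on simulated data. The named genes are the 9 chosen genes, the 2 list genes with the largest rise and the 2 with the largest fall in each pair (at least 50 UMIs, mesenchymal-like cells), and the 3 genes most alike to each. Other genes named in the endothelial, subset and Ankrd1 results were picked with their values in view. The genes, lists and comparisons were chosen with earlier results of these data known. Promoter sequences are from RefSeq (GRCr8), on another build than the counts, and 6 of the 9 genes matched.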

Additional observations from a re-analysis of the deposited data

Results flagged for a closer look

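Piezo2 in mesenchymal-like cells moved in opposite directions in the pairs at 4 h, with a log2 ratio of TOE over TO of 2.15 at 2d 4h and -2.49 at 4d 4h. Each side of each pair was 1 library, and the difference between the pairs was not tested. The pairs differed in their shares of fibroblast-like and pericyte and smooth muscle-like cells, as given with the result.

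Ankrd1 was at 41.4 CPM (96 UMIs) in an unnamed cluster of 1078 cells with a median of 874 UMIs per cell, which entered no cell class and was counted only in the sums over all kept cells. This was above its 1.90 CPM in the mesenchymal-like and 2.03 CPM in the endothelial-like class. The UMIs lay in 5 cells, and a single cell held 49 of them. The cluster was led by mesenchymal genes, with Ccn1 at 151 CPM and Ccn2 at 82.9 CPM.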

How the results depend on the processing

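Each condition had 1 library and no result comes from a test. TOE and TO are matched by time point in 3 pairs, and a fit over them with the time point as a block was not made. Over the alternatives, 843 of the recomputed log2 ratios moved by less than counting error, 67 moved further, and 1 past 2-fold changed sign: Yap1 in endothelial-like cells at 4d 24h, at 0.83 when every cell was weighted alike. Levels and shares moved as well. Of the recomputed levels, 40 were counted as moved and 104 as the same, and all 27 recomputed shares were counted as moved. Of ratios below 2-fold, 24 changed sign, 13 of them by more than counting error, among them Yap1 in mesenchymal-like cells at 2d 4h (log2 -0.70, and 0.53 in osteoblast-like cells alone) and Ccn2 there (-0.55, and 0.31 without unnamed clusters). The Piezo2 ratios in mesenchymal-like cells stayed past 2-fold in 15 of 15 alternatives each (log2 between 1.16 and 2.21 at 2d 4h, between -3.05 and -2.13 at 4d 4h), and Trpv4 at 4d 4h in 15 of 16 (log2 between 0.49 and 1.36). Osteoblast-like cells alone were among the 16 for Trpv4 but not among the 15 for Piezo2. Piezo2 had 0 UMIs there on both sides of both pairs, so the result could not be seen in that subset.

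The shares of all genes given above are those of the main setting at 2-fold, and none is given here for the alternatives. The number of the 9 genes past 2-fold moved as follows. In mesenchymal-like cells at 2d 4h (1 gene) it was 5 at Leiden resolution 0.5, 6 with the genes allowed among the variable genes, 2 at a fold of 1.5 and 0 in osteoblast-like cells alone. The resolution of 0.5 and the wider set of variable genes added 4439 and 3672 cells of low-UMI clusters to the class. At 4d 4h (2 genes) it was 0 in osteoblast-like cells alone, and at 4d 24h (0 genes) it was 1 with no minimum count. In endothelial-like cells at 2d 4h (0 genes) it was 1 with the genes allowed among the variable genes and 3 at a fold of 1.5, and at 4d 4h (1 gene) it was 0 with the genes allowed and 0 without the top cell of each library. Over all cells at 2d 4h (2 genes) it was 1 when cells were weighted alike, 1 without top cells and 4 at a fold of 1.5, and at 4d 4h (2 genes) it was 5 at a fold of 1.5. At 4d 24h (0 genes) it was 1 with doublets kept, 1 without mitochondrial and haemoglobin UMIs, 1 after centring on the median gene, 2 when cells were weighted alike, 2 without top cells and 3 at a fold of 1.5. Over all cells, Yap1 at 2d 4h stayed past 2-fold in 8 of 10 alternatives and Piezo2 at 4d 4h in 9 of 10. Without the low-depth erythroid-like cluster, chosen after seeing the data, Ccn1 over all cells at 2d 4h was at a log2 ratio of -0.75, below 2-fold. The cause of the other changes was not tested.

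Leaving out each library in turn, the pooled mesenchymal-like level of Piezo2 (22.7 CPM) ranged from 10.1 CPM without TO 4d 4h to 36.6 CPM without TOE 2d 24h, and that of Ankrd1 from 1.21 to 2.31 CPM. The other mesenchymal-like levels ranged from 35.9 to 45.6 CPM for Piezo1, 8.49 to 11.3 CPM for Trpv4, 76.8 to 95.6 CPM for Yap1, 69.5 to 83.3 CPM for Wwtr1, 171 to 190 CPM for Tead1, 205 to 230 CPM for Ccn1 and 180 to 204 CPM for Ccn2. The small numbers of endothelial-like cells in TOE 4d 24h (17) and of fibroblast-like cells at 2d 4h (3 and 8) limit what those libraries can show.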

Other observations

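Of the 3 cells richest in Ankrd1, 2 carried genes of skeletal muscle precursors, looked at after their values were seen. The 3 cells with the most Ankrd1 UMIs held 49, 34 and 25. The cells with 49 (TO 2d 0h) and 25 (TO 4d 4h) both lay in the unnamed low-UMI cluster, although they had 82979 and 27613 UMIs. The cell with 49 also held 156 UMIs of Des, which encodes the muscle intermediate filament desmin, 17 of Myod1, 6 of Myf5 and 1 of Pax7, myogenic transcription factors, and 10 of Col1a1. The cell with 25 held 58 UMIs of Des, 73 of Myog, the factor of muscle differentiation, and 0 of Col1a1. The cell with 34 was mesenchymal-like, with 342 UMIs of Col1a1, 89 of Ccn2 and 1 of Des.

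Ccn2 in blood cells was highest in TOE 2d 24h, in 8 of 9 named classes. It was at 19.6 CPM there in granulocyte-monocyte progenitor-like cells (5.21 to 7.78 CPM in the other libraries), at 14.2 CPM in neutrophil-like cells and at 2.90 CPM in B cell-like cells. Over all cells of that library Ccn2 was at 42.8 CPM, against 3.66 to 16.0 CPM in the other libraries, and 3.53% of its cells were mesenchymal-like. The part of free RNA in these values was not tested.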
